A study of Mus musculus with 7 samples.

Results

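The NF-kappaB and TNF response genes described here are 10 genes that were chosen by name: the 5 REL family subunits Nfkb1, Nfkb2, Rel, Rela and Relb, the feedback inhibitors Nfkbia and Tnfaip3, the cytokines Tnf and Il6, and the ubiquitin ligase gene Birc3. All 10 symbols were found among the 56941 genes listed for each animal. They were followed across 4 animals, 2 genotypes and 12 marker-defined classes of nuclei from small cell lung cancer (SCLC), an aggressive neuroendocrine lung tumor.

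NF-kappaB factors are dimers of REL family proteins. In resting cells they are held in the cytoplasm by inhibitor proteins such as the Nfkbia product IkappaB-alpha, and ligands such as TNF free them by way of the IkappaB kinase complex, after which they enter the nucleus and switch on genes that include their own inhibitors. In lung, the pathway is best known from macrophages, lymphocytes and stromal cells that respond to injury or infection. Caspase 8 sits downstream of the same TNF receptor and can turn its signal from survival to apoptosis.

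Single nuclei came from fresh-frozen endpoint lung tumors of 2 RP mice (Rb1 fl/fl, Trp53 fl/fl) and 2 RPC mice, which carry Casp8-/- in addition per the labels. All 4 were male, and per the study's methods the mice inhaled adenovirus encoding Cre at 8 to 12 weeks of age, so Rb1 and Trp53 were deleted in both genotypes and floxed Casp8 in RPC. The CMV promoter that drives this Cre is not restricted to one cell type. The question was what the loss of caspase 8 changes in these tumors, and the animal was the replicate, since each of the 7 sequenced libraries pooled all 4 mice.

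After the study's filters, 8363 and 8874 nuclei were kept of the RP animals and 10853 and 10164 of the RPC animals, with between 32256394 and 70517884 transcripts per animal, and no nucleus barcode was shared between animals. Both RPC animals were deeper than both RP animals, with median transcripts per nucleus of 3392 and 2767 against 2255 and 2223. Of the 38254 kept nuclei, 32094 (83.9%) were tumor-like, that is, they lay in clusters with low scores for all other marker lists and with a higher neuroendocrine score than the named non-tumor nuclei as a pool. Some tumor-like clusters scored below single named sub-clusters: the 12 ran from -0.296 to 0.244, and the named non-tumor sub-clusters reached -0.026. Nuclei of all other classes also held tumor transcripts: their summed level of the 14 neuroendocrine markers was 24.5% to 88.3% of that in the tumor-like nuclei of the same animal. Differences between classes are therefore given as they were measured, and the part of tumor RNA in them was not tested. With 2 animals a group, p-values measure the spread between these animals.

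Casp8 itself gave 56.9 and 60.6 CPM (a gene's counts scaled to the same total in each sum of nuclei) in the tumor-like nuclei of RP1 and RP2 and 91.8 and 66.9 CPM in RPC1 and RPC2. Its log2 fold change was 0.37 ± 0.19 (SE, n = 2 against 2; adjusted p = 0.40, edgeR). These counts cover the whole gene and do not resolve the deleted stretch, so the level does not check the deletion.

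The starts of 4 members are preceded by a match to the kappaB consensus, the sequence that REL family dimers bind. Among the 250 bases before the start of the canonical transcript (GENCODE vM39, GRCm39, both strands searched), 4 of the 10 members held a match, against 921 of 21757 protein-coding genes (4.23%). The stretches that hold these matches are printed as places where subunits of the family could bind. They lie before the canonical starts of a partner gene, both inhibitor genes and a cytokine gene. Each is written 5′ to 3′ on the strand of its gene, and capitals mark the match.
Nfkbia, chr12:55539433-55539492, minus strand: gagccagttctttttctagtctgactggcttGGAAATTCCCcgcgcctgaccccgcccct
Relb, chr7:19363426-19363485, minus strand: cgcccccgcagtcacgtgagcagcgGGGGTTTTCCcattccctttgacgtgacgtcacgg
Tnfaip3, chr10:18891264-18891293, minus strand: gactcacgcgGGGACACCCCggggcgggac
Il6, chr5:30218043-30218102, plus strand: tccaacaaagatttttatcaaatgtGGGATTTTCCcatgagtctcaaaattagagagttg

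The matches began 29, 37, 97 and 44 bases before the start in Nfkbia, Relb, Tnfaip3 and Il6. In Nfkbia the match read on the opposite strand, in the other 3 genes on the strand of the gene. The Tnfaip3 stretch lies before the canonical start but inside the annotated span of the gene (18874201 to 18891405). A match is a description of these letters, and none in the 250-base window of the other 6 members says nothing of sites farther away.

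The 10 genes differed widely in how much nuclear RNA they gave. Nfkb1, which encodes the p105 precursor of p50, had the highest level per animal in tumor-like nuclei, with 106 and 137 CPM in the RP and 140 and 127 CPM in the RPC animals, numbered in order. It is also a long gene, spanning 107 kb of chromosome 3 (135290264 to 135397742, minus strand). Set per kb of gene span, the tumor-like mean was 1.19 CPM per kb for Nfkb1, below the 4.96 CPM per kb of Nfkbia (4.1 kb, chromosome 12) and the 2.13 of Rela (10.7 kb, chromosome 19). Nfkb2 stood at 0.867, Birc3 at 0.624, Relb at 0.492 and Tnfaip3 at 0.154 CPM per kb. Tnf (0.0821), Rel (0.0453) and Il6 (0.00852 CPM per kb) came last. On this scale Rel was the lowest of the subunits in tumor-like nuclei, and in macrophage- or monocyte-like nuclei Tnf was second at 3.63 CPM per kb, after Nfkbia at 6.66. Set per kb of exon instead, the tumor-like means were 10.5 CPM for Nfkbia, 9.92 for Nfkb1 and 6.94 for Rela. The order of Nfkb1 and Rela thus depends on the length used. Nfkb2 overlaps the genes Psd and 4833438C02Rik on the other strand, and Nfkb1 overlaps Gm43430 on its own strand, so reads may be shared between them.

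**Figure D1:**
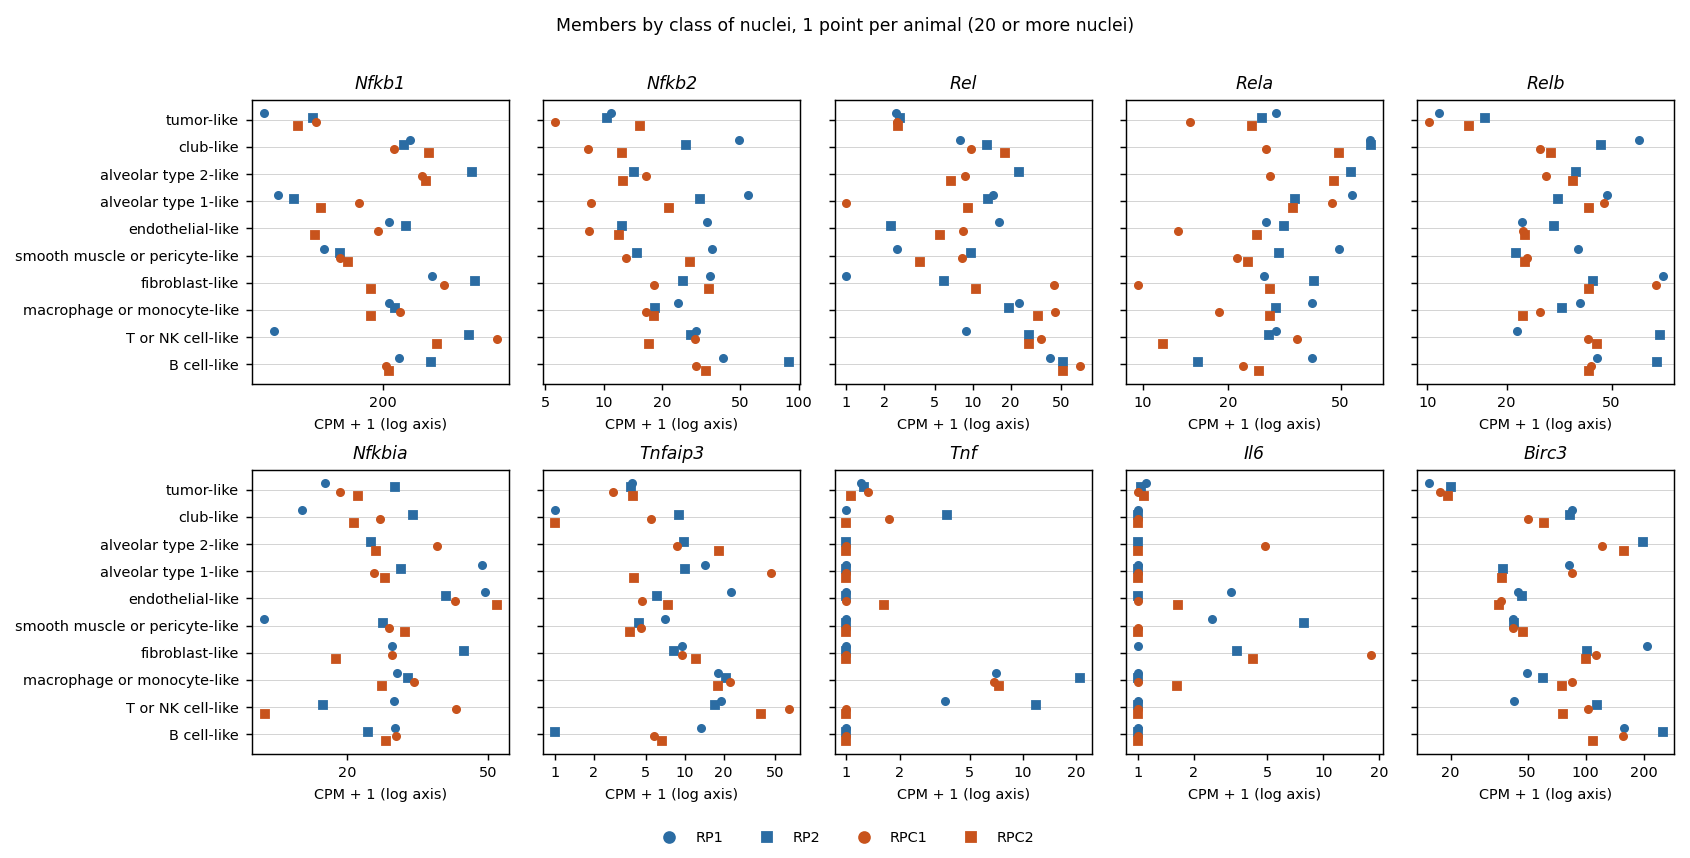
Level of each member (CPM + 1, log axis) in the tumor-like class and the 9 other classes with at least 20 nuclei in 3 or more animals; each point is 1 animal (blue RP, orange RPC; circles animal 1, squares animal 2). Birc3 and Relb lie above their tumor-like level in all 9 other classes, while Tnf lies above it in every animal in the macrophage- or monocyte-like class alone, and most Il6 points sit at 0.

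Levels of the members were then set side by side across classes. The classes were formed without these 10 genes, but on the same nuclei, so the differences are described and not tested. Of the 90 pairs of a member and one of the 9 non-tumor classes seen in at least 3 animals, 52 were above the tumor-like level in every animal. Over all 21405 genes tested in all kept nuclei, which span every level of expression and leave out Il6, this was so for 11.1% of such pairs, and the difference from the members was not tested. For Birc3 and Relb this held in 9 of 9 classes, for Nfkb1 in 8, for Nfkb2, Rel and Tnfaip3 in 6 each, for Rela in 4 and for Nfkbia in 3. The count was 54 with the mean of single-nucleus CPM, and 50 of the pairs were shared with the first count. Sub-clusters deeper than 2 times the median transcripts of their animals were kept in these levels. In the 9 classes they held 454 club-like (3.56 times), 238 macrophage- or monocyte-like (3.75), 176 endothelial-like (3.06) and 183 B cell-like nuclei (2.02). Of the 901 club-like nuclei, 644 were of RPC1 and 26 of RP1.

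Birc3 encodes cIAP2, which attaches ubiquitin to RIPK1 at the TNF receptor and keeps the signal on the survival side. In tumor-like nuclei its level was 14.5 and 19.0 CPM in the RP and 16.7 and 18.3 CPM in the RPC animals. B cell-like nuclei had 157, 249, 154 and 109 CPM in the same order, a mean of 167 ± 58.9 (SD, n = 4) and 9.77 times the tumor-like mean. Alveolar type 2-like nuclei (158 ± 38.2 CPM, n = 3 animals) and fibroblast-like nuclei (129 ± 51.4 CPM, n = 4) came next, and these 3 classes overlapped. The T or NK cell-like class followed with 83.0 ± 31.7 CPM, then club-like with 68.7 ± 16.8 and macrophage- or monocyte-like with 66.6 ± 15.5. Endothelial-like nuclei were lowest of the classes seen in 3 or more animals outside the tumor (40.0 ± 5.63 CPM), and even there each animal exceeded its tumor-like level.

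The REL family split into subunits with broad and with narrow levels. Nfkb1 ranged only from 127.5 ± 15.3 CPM in tumor-like nuclei to 270 ± 40.7 CPM in alveolar type 2-like nuclei (n = 3), a narrow span in which most neighboring classes overlapped. Rela, the p65 subunit that activates transcription in the classical pathway, was highest in club-like nuclei (50.1 ± 17.3 CPM) and stood at 22.7 ± 6.45 CPM in the tumor-like class. Relb, the partner of Nfkb2 in the alternative pathway, went from 12.02 ± 2.96 CPM in tumor-like nuclei to 57.9 ± 19.9 in fibroblast-like and 49.4 ± 16.0 in B cell-like nuclei. Nfkb2, whose p100 product is cut to p52, was highest in B cell-like nuclei (47.3 ± 27.5 CPM against 9.58 ± 3.99 in tumor-like nuclei), although its 67 counts there came from 4 animals whose levels ran from 28.9 to 87.9 CPM.

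Rel, the c-Rel subunit, had the highest ratio to tumor-like nuclei among the 5 subunits, at 34.1 in the B cell-like class. Tumor-like nuclei had 1.496 and 1.67 CPM in the RP animals and 1.57 CPM in RPC2, with RPC1 between RP1 and RPC2. This summed level was almost constant between animals, while the clusters mostly of RPC1 ran from 0.959 to 4.45 CPM. B cell-like nuclei had 40.1, 51.3, 69.8 and 51.4 CPM, and no animal came near its tumor-like value. Macrophage- or monocyte-like nuclei averaged 29.2 ± 11.4 CPM and T or NK cell-like nuclei 23.9 ± 11.2 CPM, on 193 and 19 counts. These 3 immune classes together were a small part of the tissue. Yet macrophage- or monocyte-like nuclei, with 2.19% of all nuclei and 3.32% of all transcripts, held 25.9% of the 744 Rel transcripts (95% exact binomial interval 22.8% to 29.3%). B cell-like nuclei, with 0.902% of all nuclei and 0.886% of all transcripts, held 11.96% (9.72% to 14.5%). Such intervals cover counting error only.

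The feedback inhibitors differed from each other. For Nfkbia the classes lay close together: tumor-like nuclei had 16.3, 26.3, 18.1 and 20.5 CPM, and the highest class, endothelial-like, had 48.0, 36.9, 39.3 and 52.0 CPM, above the tumor-like level in 4 of 4 animals. The T or NK cell-like (23.2 ± 12.7 CPM) and club-like classes (21.8 ± 6.597 CPM) could not be told from the tumor-like class (20.3 ± 4.35 CPM) by their spread. Tnfaip3, which encodes the ubiquitin-editing enzyme A20, had 2.92, 2.87, 1.82 and 3.00 CPM in tumor-like nuclei and 17.2, 19.97, 21.4 and 17.1 CPM in macrophage- or monocyte-like nuclei. Its highest mean was in T or NK cell-like nuclei (33.6 ± 21.5 CPM), on 28 counts in all.

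The 2323 nuclei left without a class name were 2008 shallow nuclei, at 0.386 times the median transcripts of their animals, and 315 deep ones, at 8.30 times. For Nfkbia they had 37.8 and 55.3 CPM in the RP and 23.9 and 31.0 CPM in the RPC animals, each above the tumor-like level of that animal. The part of depth in this level was not tested.

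The 2 cytokine genes were close to the limit of detection. Over all kept nuclei Tnf gave 116 transcripts and Il6 gave 28. Of the Tnf transcripts, 65 (56.0%, exact binomial interval 46.5% to 65.2%) came from macrophage- or monocyte-like nuclei, which hold 3.32% of all transcripts. Their levels were 6.01 and 19.97 CPM in RP1 and RP2 and 5.88 and 6.33 CPM in the RPC animals, against 0.219, 0.254, 0.323 and 0.0662 CPM in tumor-like nuclei, which rest on 6, 7, 17 and 3 counts. RP2 was high and the other 3 animals were alike. No Tnf transcript was counted in B cell-, alveolar type 1- or 2-, fibroblast- or smooth muscle or pericyte-like nuclei of the 4 animals.

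Stromal nuclei held a larger share of the Il6 transcripts than of all transcripts, and tumor-like nuclei held a smaller one. Fibroblast-like nuclei gave 7 of the 28 transcripts (25.0%, interval 10.7% to 44.9%) while holding 0.711% of all transcripts. Smooth muscle or pericyte-like nuclei gave 5 (17.9%) while holding 1.43%. Tumor-like nuclei gave 8 (28.6%, interval 13.2% to 48.7%) while holding 78.5%. Mesothelial-like nuclei gave 2 and macrophage- or monocyte-like nuclei gave 1. The fibroblast-like levels were 0, 2.45, 17.1 and 3.19 CPM on 0, 1, 4 and 2 counts, so the animals could not be ordered. In RPC1 no Il6 transcript was seen among 9129 tumor-like nuclei.

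Within the macrophage- or monocyte-like class, 4 of the members are given by sub-cluster. The 3 sub-clusters of this class had Atp6v0d2 and Chil3 (326 nuclei), Ms4a7 and Stab1 (272 nuclei), and Mertk and Tbxas1 (238 nuclei) among their leading genes. Mertk was among the leading genes of all 3, and Ms4a7 also among those of the one with Tbxas1. The sub-cluster with Tbxas1 held 3.75 times the median transcripts of its animals, and doublets with tumor nuclei were not removed by a caller. Rel gave 42.7, 77.5 and 12.1 CPM in the 3 sub-clusters, Birc3 99.5, 153 and 32.5 CPM, Relb 27.6, 59.5 and 21.5 CPM, and Tnfaip3 35.7, 32.6 and 7.78 CPM, with all animals summed. The deep sub-cluster was lowest for each of these 4 genes, and the Ms4a7 and Stab1 sub-cluster was highest for 3 of them.

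Tumor-like nuclei formed 12 clusters, and each was mostly of 1 animal, so cluster and animal cannot be told apart. Rela and Nfkb2 were lower in the 3 clusters of RPC1 than in all others. Rela was between 12.1 and 14.5 CPM in these and between 21.5 and 32.0 CPM in the 9 clusters of the other animals. Nfkb2 was between 1.27 and 5.72 CPM against 7.46 to 16.0 CPM. Rel reached 4.45 CPM, on 28 counts, in one cluster of RPC1, against at most 2.67 CPM in the other 9, and its lowest RPC1 cluster had 0.959 CPM. The cluster at 4.45 CPM (671 nuclei) also gave the 1.27 CPM of Nfkb2. Its leading genes included the neuronal genes Grik2, Nrxn3 and Gria4, and its neuroendocrine score was -0.174. Whether its nuclei are tumor cells was not tested. Nfkb1 was at 130 to 143 CPM against 102 to 143, and Birc3 at 15.1 to 18.3 CPM against 9.33 to 22.4.

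Loss of Casp8 was then examined member by member in tumor-like nuclei, where counts were summed per animal. Of the 10 members, 8 had enough counts for the test, and Tnf and Il6 did not. None of the 8 passed an adjusted p of 0.05 (edgeR quasi-likelihood test), against 0 of 20079 genes (0%), with 0 of the members and 3030 of all genes at an unadjusted p under 0.05. Their median log2 fold change was -0.15 against -0.01 over all genes tested, with 2 above and 6 below 0. RP and RPC animals did not overlap for 1 of the 8, while this was so for 50.6% of all genes tested.

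**Figure D2:**
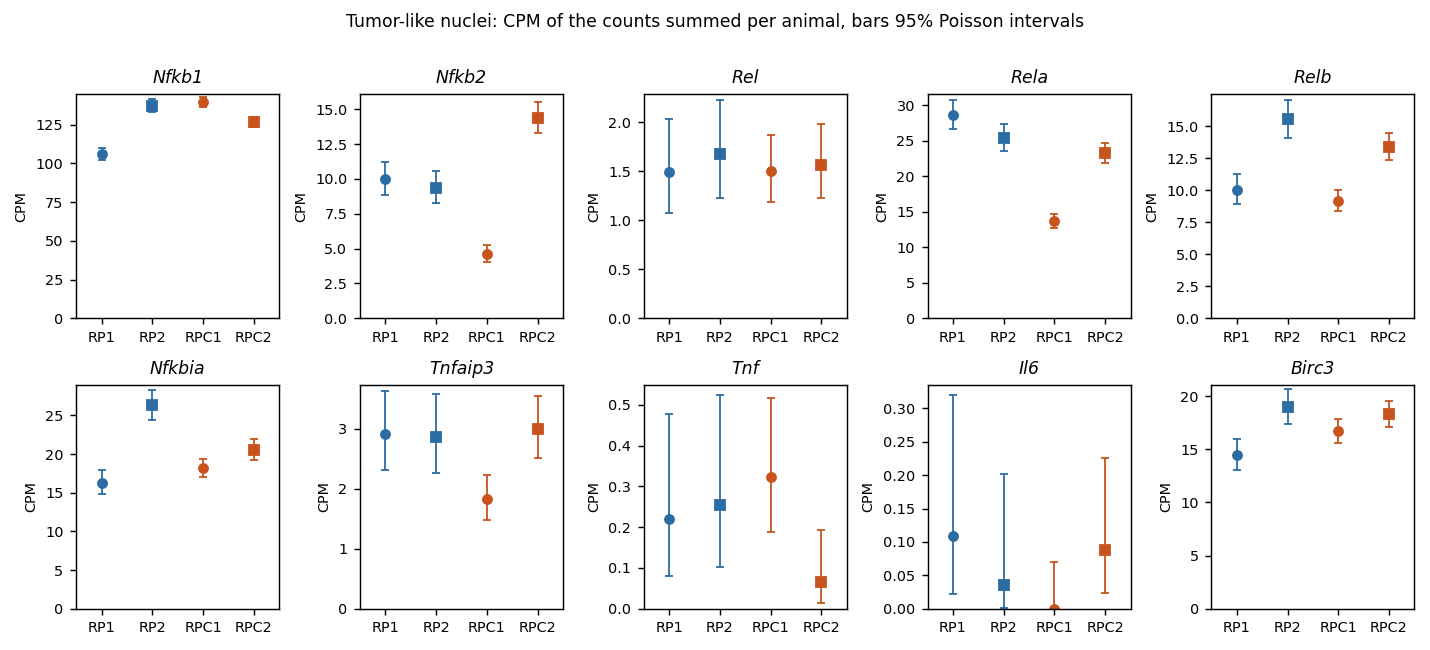
Level of each member in tumor-like nuclei of the 4 animals (CPM of summed counts, linear axis from 0; bars are 95% Poisson intervals, counting error only; blue RP, orange RPC). Rela is the one tested member whose RP and RPC animals do not overlap, with RPC1 at 13.6 CPM apart from the other 3; Tnf and Il6 rest on 17 counts or fewer per animal.

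Rela was that member. It had 28.6 and 25.4 CPM in RP1 and RP2 and 13.6 and 23.2 CPM in RPC1 and RPC2, so RPC1 was low and RPC2 lay just under the RP animals. The log2 fold change was -0.61 ± 0.31 (SE; p = 0.10, adjusted p = 0.40, edgeR), and it was -0.25 without RPC1 and -1.04 without RPC2. In each of the 7 sublibraries, which are technical splits of the same nuclei, the RPC mean was below the RP mean. RPC1 was also the lowest animal for Rela in macrophage- or monocyte-like (17.6 CPM) and in endothelial-like nuclei (12.3 CPM), classes that hold tumor transcripts.

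The other subunits overlapped between genotypes in their summed levels in tumor-like nuclei. Nfkb1 differed by 0.08 ± 0.17 on the log2 scale (adjusted p = 0.85) and Rel by -0.10 ± 0.33 (adjusted p = 0.90). Nfkb2 had 9.96 and 9.38 CPM in RP1 and RP2 but 4.61 in RPC1 and 14.4 in RPC2, so both RPC animals lay outside the RP pair on opposite sides (log2 fold change -0.08 ± 0.55, adjusted p = 0.96). Relb had 10.03 and 15.5 CPM in RP and 9.15 and 13.4 CPM in RPC animals (-0.23 ± 0.33, adjusted p = 0.75).

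By summed level, neither the inhibitors nor Birc3 separated the genotypes. Nfkbia differed by -0.19 ± 0.27 (adjusted p = 0.76), Tnfaip3 by -0.32 ± 0.38 (adjusted p = 0.70) and Birc3 by 0.01 ± 0.22 (adjusted p = 0.99) on the log2 scale. A missed threshold does not show equal levels at 2 animals a group.

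Over all kept nuclei, which does not depend on class names, 9 members were tested and none passed (0% of 21405 genes did; 50.6% of them did not overlap, against 2 of the 9 members). Rela was -0.56 ± 0.26 (adjusted p = 0.36), and Tnfaip3, at 4.50 and 4.46 CPM in RP and 3.23 and 3.87 CPM in RPC animals, was -0.39 ± 0.28 (adjusted p = 0.52). Tnf was -1.40 ± 0.67 (adjusted p = 0.37) with 53 of its counts in RP2, and it was -0.28 without that animal.

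The macrophage- or monocyte-like class held 162 and 310 nuclei of the RP and 189 and 175 of the RPC animals. Of the members, 9 were tested, and none passed the adjusted threshold, while 0.00836% of 11955 genes did. At an unadjusted p under 0.05 it was 1 of the 9, Rel, and 1417 of all genes. RP and RPC animals did not overlap for 5 of the 9, higher in RPC for Rel and Birc3 and lower for Rela, Relb and Nfkb2, a share near the 46.2% of all genes tested.

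**Figure D3:**
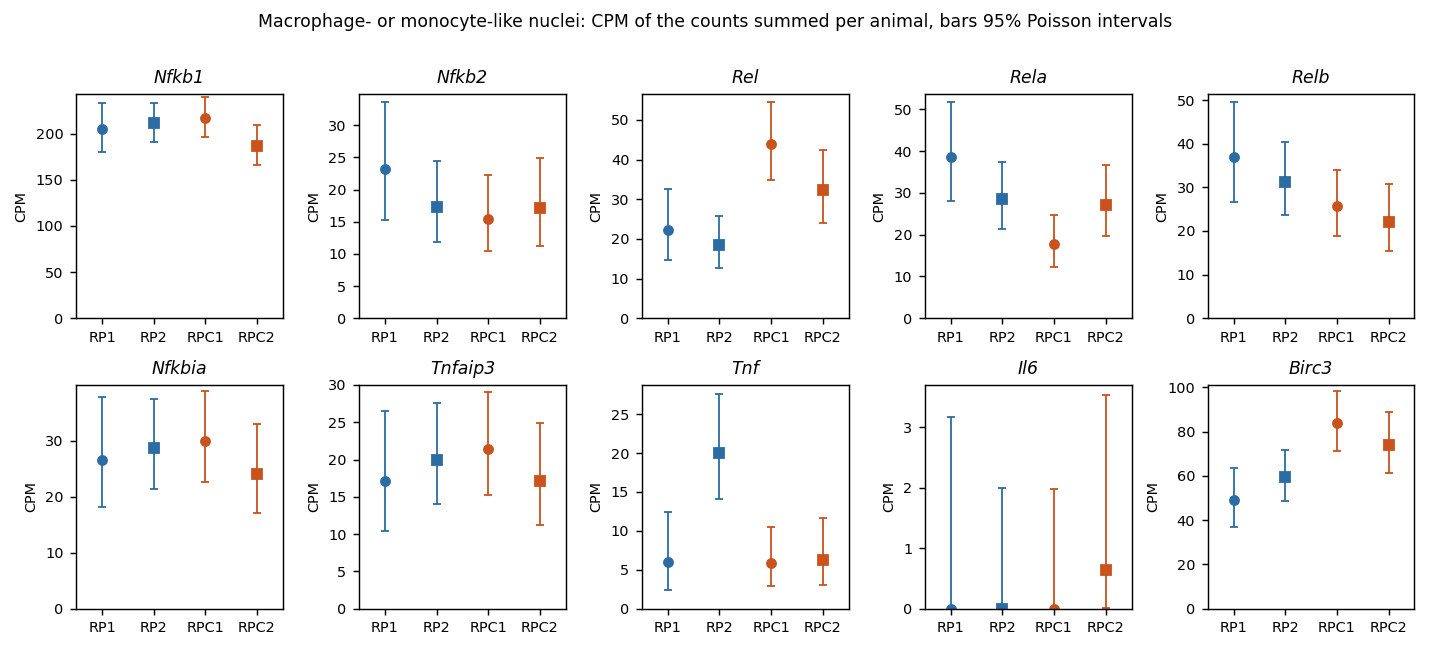
Level of each member in macrophage- or monocyte-like nuclei of the 4 animals (CPM of summed counts, linear axis from 0; bars are 95% Poisson intervals, counting error only; blue RP, orange RPC). Rel and Birc3 are higher in both RPC animals than in both RP animals, Relb is lower in both, and RP2 stands alone for Tnf.

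Rel had 22.3 and 18.4 CPM in RP1 and RP2 and 43.8 and 32.3 CPM in RPC1 and RPC2, on 26, 34, 82 and 51 counts. Both RPC animals were above both RP animals, and the log2 fold change was 0.81 ± 0.29 (p = 0.027, adjusted p = 0.39). The order held inside the 2 sub-clusters of usual depth: 38.1 and 21.3 against 48.7 and 73.1 CPM for Rel in the one with Chil3, and 54.0 and 56.9 against 93.6 and 106 CPM in the one with Stab1. In the deep sub-cluster it did not hold, with 10.1 and 9.53 against 21.7 and 9.06 CPM. Without the deep sub-cluster the log2 fold change was 0.82 (adjusted p = 0.46). T or NK cell markers in this class summed to 665 and 553 CPM in RP and 860 and 703 CPM in RPC animals, and B cell markers to 70.4 and 27.5 against 40.1 and 60.1 CPM. T or NK markers were higher still in tumor-like nuclei (887 to 1421 CPM). Their part in the difference of Rel was not tested.

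Birc3 had 48.9 and 59.4 CPM in RP and 83.9 and 74.0 CPM in RPC animals, a log2 fold change of 0.43 ± 0.21 (p = 0.086, adjusted p = 0.48). In 6 of the 7 sublibraries the RPC mean was above the RP mean for Birc3, and likewise for Rel. Shares of nuclei with a transcript were compared after each nucleus was thinned to 1000 transcripts. Birc3 was then seen in 8.22% and 9.35% of RP and 12.9% and 13.6% of RPC nuclei of this class, and Rel in 4.80% and 4.32% against 6.45% and 7.41%. Shares of Nfkb2 and Tnf in this class did not overlap either and were lower in RPC. They were 5.48% and 3.96% against 3.23% and 1.24% for Nfkb2, on 8, 11, 6 and 2 nuclei. For Tnf they were 2.06% and 1.44% against 0.538% and 1.24%, on 3, 4, 1 and 2 nuclei. Unthinned, the shares were 24.0% and 27.7% against 49.5% and 43.2% for Birc3, at median depths of 3454 and 3364 against 5037 and 3602 transcripts per nucleus. In tumor-like nuclei thinned alike, between 1.60% and 1.76% held Birc3. Rel was held by 0.174% and 0.247% of RP and 0.156% and 0.134% of RPC nuclei, on 11, 16, 14 and 11 nuclei. Tnfaip3 was held by 0.348% and 0.293% against 0.178% and 0.292%, and Rela by 2.64% and 2.56% against 1.20% and 2.31%. These shares of Rel, Tnfaip3 and Rela did not overlap between genotypes, and those of the other members did. Over all genes and the 3 classes compared, 30.1% did not overlap. In the macrophage- or monocyte-like class the exact two-sided permutation p was 0.33 for the shares of Birc3 and Rel, the smallest that 2 against 2 animals can give.

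Relb went the other way in this class, with 36.9 and 31.3 CPM in RP and 25.7 and 22.1 CPM in RPC animals (log2 fold change -0.61 ± 0.27, p = 0.058, adjusted p = 0.43). Rela had 38.6 and 28.6 against 17.6 and 27.2 CPM (-0.68 ± 0.35, adjusted p = 0.49). Without the deep sub-cluster Relb was -0.35 (adjusted p = 0.73). Thinned shares of nuclei with a Relb transcript gave no such order, at 5.48% and 5.76% in RP and 4.84% and 8.02% in RPC animals. Tnf was -1.26 ± 0.61 (adjusted p = 0.47) and -0.09 without RP2. The fold changes of Tnfaip3 (-0.07), Nfkbia (-0.14) and Nfkb1 (-0.16) were smaller.

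**Figure D4:**
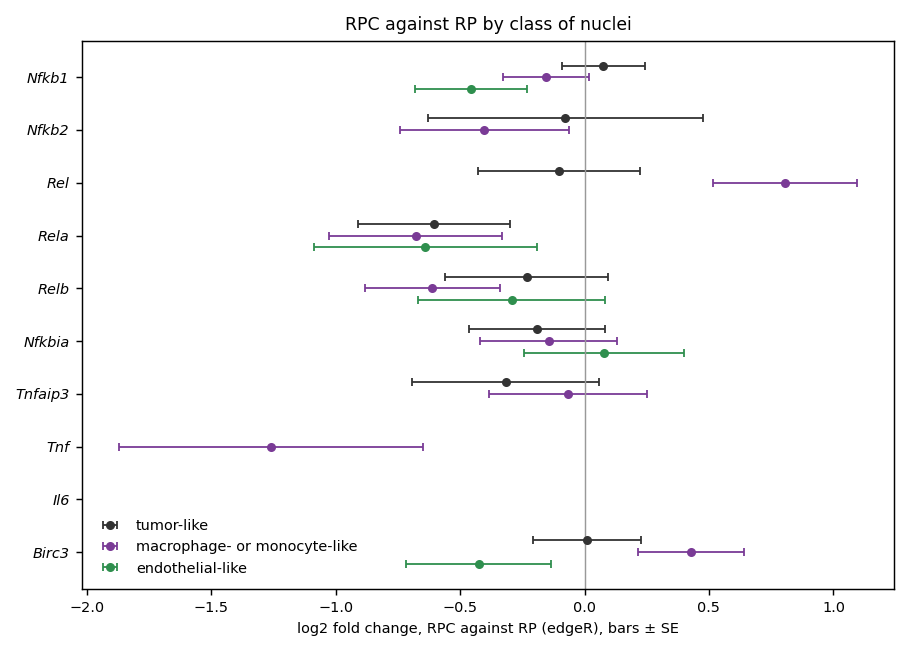
Log2 fold change of RPC against RP (edgeR; bars ± SE) for each tested member in tumor-like, macrophage- or monocyte-like and endothelial-like nuclei. Members without a point had too few counts; Rel and Birc3 sit right of 0 in the macrophage- or monocyte-like class, Rela sits left of 0 in all 3 classes, and no adjusted p is under 0.05.

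Whether the effect of genotype differed between classes was tested by an interaction. For Rel it was 0.99 ± 0.45 larger in macrophage- or monocyte-like than in tumor-like nuclei on the log2 scale (p = 0.045, adjusted p = 0.99), and for Birc3 it was 0.52 ± 0.22 larger (p = 0.036, adjusted p = 0.99). None of the members passed, while 0.00529% of 18919 genes did.

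Endothelial-like nuclei, 93 and 155 of the RP and 92 and 177 of the RPC animals, allowed a test of 5 members. None passed (0.0423% of 9462 genes did), and 3 of the 5 did not overlap between genotypes, against 47% of all genes. Nfkb1 had 205 and 224 CPM in RP and 194 and 139 CPM in RPC animals (-0.46 ± 0.23, p = 0.079, adjusted p = 0.45). Birc3 had 43.7 and 45.8 against 35.6 and 34.7 CPM (-0.43 ± 0.29, adjusted p = 0.56), the opposite sign to the macrophage- or monocyte-like class. Against tumor-like nuclei, the effect on Nfkb1 was lower by -0.53 ± 0.21 (p = 0.009, adjusted p = 0.59), while 0.408% of 18615 genes passed. Nfkb2 was also in this fit (-1.12 ± 0.56), but it was not among the 5 members tested in endothelial-like nuclei alone. It had 47 counts there against 1425 in tumor-like nuclei and entered the fit by the latter, so no p-value is read for it. Nfkbia, the member in which this class was highest, had 48.0 and 36.9 against 39.3 and 52.0 CPM (0.08 ± 0.32, adjusted p = 0.93). The share of endothelial-like nuclei with an Nfkbia transcript did not overlap, at 5.95% and 2.52% in RP and 7.87% and 13.5% in RPC animals after thinning, on 5, 3, 7 and 21 nuclei. The exact two-sided permutation p was 0.33, the smallest possible. Over all genes and the 3 classes compared, 30.1% of thinned shares did not overlap. Of the endothelial-like nuclei, 176 lay in a sub-cluster at 3.06 times the median transcripts of its animals. Doublets with tumor nuclei were not removed there by a caller. No member passed in the fit without this sub-cluster either. The part of depth in the levels of this class was not tested.

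The other genes of the pathway were read from lists. Of 63 further pathway genes (receptors and ligands, adaptors and kinases, inhibitors), 57 were tested in tumor-like nuclei and none passed in either direction. Their median log2 fold change was 0.04, and 30 of the 57 did not overlap between genotypes. Of 45 target genes, 27 were tested, none passed, and the median was -0.13. In macrophage- or monocyte-like nuclei 55 and 21 genes of the 2 lists were tested, in endothelial-like nuclei 44 and 13, and none passed.

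Several named pathway genes did not overlap between the genotypes in tumor-like nuclei, as was so for 50.6% of all genes tested. Il6ra, the ligand-binding chain of the IL-6 receptor, had 98.0 and 111 CPM in RP and 240 and 184 CPM in RPC animals (log2 fold change 0.96 ± 0.18, p = 0.0025, adjusted p = 0.26, edgeR). Under DESeq2 it passed, with an adjusted p of 0.0125 and a log2 fold change of 1.003. Irak1, the kinase of the IL-1 receptor, was 0.52 ± 0.18 (adjusted p = 0.31), the deubiquitinase gene Otud7b 0.46 ± 0.15 (adjusted p = 0.30) and the IL-1 receptor chain gene Il1rap 0.44 ± 0.26 (adjusted p = 0.46).

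The lower genes included parts of the linear ubiquitin ligase that acts at the TNF receptor. Rnf31, its catalytic chain, had 35.0 and 43.6 CPM in RP and 29.2 and 25.7 CPM in RPC animals (-0.57 ± 0.18, adjusted p = 0.29). Rbck1 had 33.4 and 31.4 against 25.5 and 23.4 CPM (-0.46 ± 0.16, adjusted p = 0.31). Sharpin, the gene of its remaining chain, which was named after its values were seen, overlapped between the genotypes, at 11.4 and 9.67 against 9.25 and 10.5 CPM (-0.15 ± 0.24, adjusted p = 0.78). The adaptor gene Traf2 was -0.56 ± 0.16 (adjusted p = 0.29) and Map3k14, the kinase of the alternative pathway, -0.34 ± 0.14 (adjusted p = 0.34). Of the target list, Sod2 (0.37 ± 0.19) and Tap1 (0.21 ± 0.22) were higher in RPC, and Gadd45b (-0.36 ± 0.25), Rcan1 (-0.28 ± 0.18) and Tnfaip8 (-0.23 ± 0.14) were lower. None of these 5 passed, with edgeR adjusted p of 0.40 for Sod2, 0.65 for Tap1 and at most 0.51 for the other 3.

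Likeness of pattern was measured over 29 sums of at least 50 nuclei of 1 class and animal, as Pearson's r of log2(CPM + 5), and is a description, since sums of 1 animal share depth and tumor RNA. Birc3 was most like Bach2 (r = 0.86), Uvrag (0.82) and Rest (0.79), and Rel was most like Raet1e (0.85), Cyth1 (0.84) and A630001G21Rik (0.84). Tnfaip3 was most like Rap1b (0.84), Psen2 (0.79) and Lilrb4a (0.77), Rela like Stk40 (0.81), Mmp15 (0.80) and Alcam (0.78), and Relb like Sp100 (0.81), Tgfbr2 (0.79) and Trim30a (0.77). For Nfkb1 the nearest gene was a member, Birc3 (0.78), followed by Gm28047 (0.78) and Irak2 (0.78). Nfkb2 was closest to Gm45669 (0.69), Satb1 (0.66) and A530088E08Rik (0.65), and Nfkbia to Car14, Tmem100 and Efnb2 (each 0.75). Among the members, Birc3 also ran with Relb (0.77) and Rel (0.74), while Tnf and Il6 had too few counts.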

How the data were processed

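Nuclei of 4 mice were profiled by split-pool single-nucleus RNA sequencing in 7 sublibraries, each holding all 4 animals, and the animal was taken from the deposited matrix of each mouse. The authors deposited raw transcript counts per gene and nucleus, made with the Parse pipeline on GRCm39, the build also named in the submitters' processing notes. How intronic reads were counted is not given in the sources used here.

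The study's filters were applied (at least 300 counts, at most 10% mitochondrial counts, at most 12000 genes), which kept 38254 nuclei. They were clustered (2000 variable genes, members and gene lists left out, 20 components, Leiden resolution 0.4, leidenalg 0.10.2) and named from marker lists, the class of a cluster resting on at least 3 detected markers. No doublet caller was run. Counts were summed per class and animal and fitted in edgeR 4.0.16 (R 4.3.3; TMM, filterByExpr, quasi-likelihood test, two-sided, Benjamini-Hochberg over all genes tested, threshold 0.05), with DESeq2 1.42.0 as an alternative. All adjusted p-values are from edgeR unless DESeq2 is named. CPM scale a gene's counts by all counts of the same class and animal. The edgeR fit of tumor-like nuclei was also run on simulated counts with the same spread for every gene. No conclusion about these data is drawn from that run. Other alternatives were RLE scaling, no filter on low counts, each animal left out, and the animal number as a block.

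All 10 members are named. Of the pathway and target lists, the genes named are those called, and up to 4 a side with the largest rise or fall in tumor-like nuclei among those of log2 CPM of at least 3 whose genotypes did not overlap. The 3 genes most like each member with a mean count of at least 20 are named too. Members and lists were chosen with earlier results of these data known. Promoters were read from the GRCm39 genome with GENCODE vM39 starts.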

Additional observations from a re-analysis of the deposited data

How the results depend on the processing

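No member passed the threshold in any of the 56 fits over 6 comparisons, where the lowest adjusted p of a member was 0.137 (edgeR or DESeq2). Counts of all genes called moved far more, and the cause was not tested. DESeq2 called 670 genes in tumor-like nuclei, 689 over all kept nuclei, 42 in macrophage- or monocyte-like and 39 in endothelial-like nuclei, against 0, 0, 1 and 4 in edgeR, and 7 and 9 for the differences of the macrophage- or monocyte-like and endothelial-like effects from the tumor-like one, against 1 and 76. Without a filter on low counts edgeR called 47, 1551, 503 and 349 genes in these 4 comparisons. Leaving out 1 animal gave 0 to 3 calls in tumor-like nuclei (2 without RP1, 3 without RPC2), 1 to 28 in macrophage- or monocyte-like nuclei (9 without RP1, 28 without RP2, 24 without RPC2) and 12 to 255 in endothelial-like nuclei (12, 68, 255 and 74 without RP1, RP2, RPC1 and RPC2). For the differences it gave 38 to 240 (46, 100, 38 and 240 in the same order) and 28 to 103 (28 without RP1). The lone animal is then assumed to vary like the others.

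With the animal number as a replicate block, 3 genes were called in macrophage- or monocyte-like and 268 in endothelial-like nuclei. The sources used here name nothing that same-numbered animals alone share. Same-numbered animals correlated at -0.05, -0.10, -0.14 and 0.09 in tumor-like, all kept, macrophage- or monocyte-like and endothelial-like nuclei. After the data were seen, a crossed replicate block (19 calls) and a fit without deep sub-clusters (2 calls) were added for macrophage- or monocyte-like nuclei, and one without deep sub-clusters (6 calls of 5669 genes tested) for endothelial-like nuclei.

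Of the members' fold changes in tumor-like nuclei, leaving out 1 animal gave -0.082 to 0.26 for Nfkb1, -1.12 to 0.54 for Nfkb2, -0.53 to 0.095 for Relb, -0.48 to 0.17 for Nfkbia, -0.72 to 0.020 for Tnfaip3 and -0.15 to 0.20 for Birc3, so that the sign of these 6 rests on single animals. Nfkb2 was 0.027 without nuclei above 4 times the median counts. Tnfaip3 ran from -0.19 to 0.056 in macrophage- or monocyte-like and Nfkbia from -0.19 to 0.29 in endothelial-like nuclei. Il6ra was 1.003 in DESeq2, where it passed. Rela in tumor-like nuclei (-1.04 to -0.25) and Rel (0.62 to 0.96) and Birc3 (0.29 to 0.58) in macrophage- or monocyte-like nuclei kept their sign. Of the 30 pairs of class and member, the thinned shares did not overlap between genotypes in 10, near the 30.1% of such pairs over all genes, and in 15 to 22 with 1 animal left out (22, 17 and 20 without RP2, RPC1 and RPC2), where fewer animals make overlap rarer.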
